A study of Homo sapiens with 2 samples.

Results

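LMNB1, LMNB2, TMPO, LBR, HMGB1 and HMGB2 encode proteins of the nuclear lamina and 2 HMGB chromatin proteins, and their transcripts were examined in A549 cells treated with paclitaxel. The 6 genes were chosen by name, and every row with 1 of these names was taken from the table of expression and from the table of skipped exons. Of the 812 genes (993 transcripts) in the expression table, 5 were members, with 7 transcripts, and LBR was not among them. Of the 35827 events in 9939 genes of the skipped-exon table, 12 events in 5 member genes were found, and HMGB2 had none. A549 is an established human lung adenocarcinoma line, and paclitaxel is a drug that stabilizes microtubules. The paclitaxel group was 1 library of A549 cells given 7.22 nM paclitaxel for 72 h, and the control was 1 library of A549 cells given DMSO, the solvent, for the same 72 h. With 1 library per condition the differences have no replicate check, and no p-value was computed.

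The nuclear lamina is a meshwork of lamin filaments under the inner nuclear membrane, which carries the nuclear shape and binds chromatin. LMNB1 and LMNB2 encode the B-type lamins, which stay attached to the membrane through a lipid group, while TMPO (thymopoietin, also called lamina-associated polypeptide 2) and LBR (lamin B receptor) encode proteins that tie lamina, membrane and chromatin together. HMGB1 and HMGB2 encode DNA-bending proteins of chromatin, and HMGB1 also acts as an alarm signal when cells release it. Loss of lamin B1, and of HMGB proteins from the nucleus, is widely used as a marker of cellular senescence, a lasting arrest of the cell cycle, and LMNB1, TMPO and HMGB2 are also known as genes of proliferating cells.

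Expression was given as FPKM, which corrects fragment numbers for transcript length and for library size, so levels can be set side by side between genes. The table lists only transcripts that passed the authors' own test, with an adjusted p under 0.05, and the smallest fold difference in it is 2.87. A transcript outside it has no value here. Whether LBR was unchanged, or was not expressed, therefore cannot be told from the FPKM values. Its 2 skipped-exon events were read for their positions only. The number of reads behind a value is unknown. In bulk RNA, fewer cells that express a gene and less RNA per cell cannot be told apart.

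All 7 listed transcripts of the 5 listed member genes were lower with paclitaxel on the deposited scale, with log2 ratios (paclitaxel over DMSO) between -3.54 and -1.70 and a median of -2.20. Over the whole table, 53.9% of the listed transcripts and 51% of the listed genes, taken by their highest transcript, were lower. Of the 466 transcripts with at least 1 FPKM in both libraries, as all 7 member transcripts had, 68.5% were lower. The 535 lower transcripts of the whole table had a median log2 ratio of -3.18. By this plain ratio the members' decreases were smaller than the middle of the lower transcripts in 6 of the 7 cases, the exception being 1 transcript of HMGB2. That placing depends on the scale. With 1 FPKM added to both libraries, the HMGB2 transcripts ranked 102 and 213 of the 535 and LMNB1 ranked 144. On the same scale TMPO ranked 289, the HMGB1 transcripts 398 and 393, and LMNB2 421. The direction rests on the deposited scaling: the summed FPKM of the listed transcripts was 14093 with paclitaxel and 60710 with DMSO, and when each library was divided by its sum over listed transcripts above 0 in both, which adds 2.13 to every log2 ratio, LMNB2 and HMGB1 turned to higher (0.43, and 0.42 and 0.37) while LMNB1 (-0.72), TMPO (-0.071) and HMGB2 (-1.41 and -0.79) stayed lower. Histone transcripts made up 28.2% of that sum with paclitaxel and 78.7% with DMSO, and without histone and globin transcripts the shift was 0.42, under which all 7 stayed lower. Both sums cover only transcripts that were called different, so neither is an independent measure of library size.

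**Figure D1:**
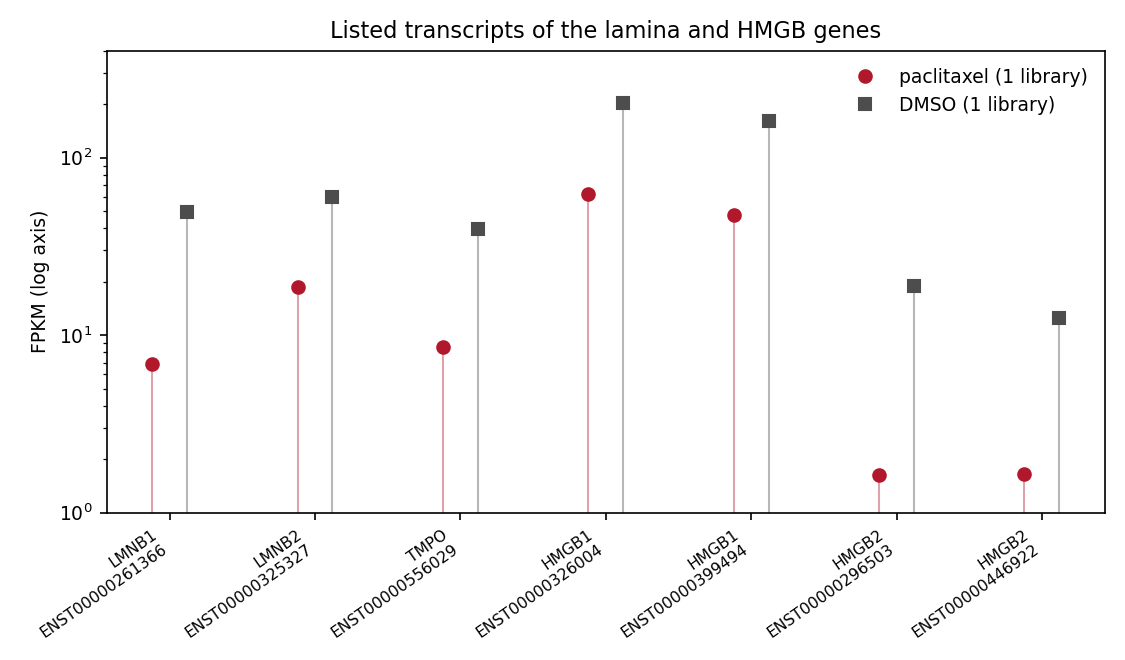
FPKM (log axis) of the 7 listed transcripts of LMNB1, LMNB2, TMPO, HMGB1 and HMGB2, with a circle for the paclitaxel library and a square for the DMSO library. Each circle lies below its square on the deposited scale. Under scaling to the listed sum LMNB2 and HMGB1 are higher, but not with histone and globin transcripts left out of that sum. The HMGB2 transcripts had 1.62 and 1.65 FPKM with paclitaxel and the HMGB1 transcripts 62.0 and 47.5 FPKM.

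LMNB1, which encodes lamin B1, had 6.91 FPKM in the paclitaxel library and 49.6 FPKM in the DMSO library. The paclitaxel level was 13.9% of the DMSO level, 7.17-fold lower and a log2 ratio of -2.84. This decrease ranked 337 of the 535 lower transcripts, or 144 with 1 FPKM added to both libraries. The transcript, ENST00000261366, is the MANE Select form (the reference form agreed between Ensembl and RefSeq) and lies at chr5:126777136-126837020 on the plus strand of hg38, with 11 exons and a protein of 586 residues. It is 1 of 8 transcripts of the gene in GENCODE 44, and the other forms were not in the table.

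LMNB2, the gene of lamin B2, had 18.5 FPKM with paclitaxel and 60.1 FPKM with DMSO. On the deposited scale it was 3.24-fold lower, a log2 ratio of -1.70 and rank 528 of 535, but under scaling to the listed sum it was higher, with a log2 ratio of 0.43. With histone and globin transcripts left out of that sum it stayed lower, at -1.28. Its transcript ENST00000325327, the MANE Select form at chr19:2428166-2456959 on the minus strand, encodes 620 residues. The coding sequences of both B-type lamins were identical at 64.8% of 1736 aligned bases and shared no stretch of 31 bases over the whole transcripts.

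The balance of the listed B-type lamin transcripts differed between the libraries. LMNB1 stood at 0.373 times LMNB2 with paclitaxel and at 0.824 times LMNB2 with DMSO, so the ratio was 2.21-fold lower with paclitaxel. Such a ratio within a library does not depend on how the libraries were scaled. It shows unequal change of the 2 genes, and not which of them changed.

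TMPO had 8.60 FPKM with paclitaxel and 39.4 FPKM with DMSO. The log2 ratio of -2.20, or 4.58-fold lower, lay between those of LMNB1 and LMNB2. The listed transcript, ENST00000556029, is 1 of 13 in GENCODE 44 and the MANE Select form, at chr12:98515590-98550351 on the plus strand with 9 exons. It encodes the membrane-anchored beta form of 454 residues, whereas the alpha form, which lies in the nuclear interior with A-type lamins, comes from another last exon and was not in the table. Within each library, LMNB1 was at 0.804 times TMPO with paclitaxel and 1.26 times TMPO with DMSO, and LMNB2 at 2.16 times TMPO with paclitaxel and 1.53 times TMPO with DMSO. Relative to the listed TMPO transcript, the listed transcripts of the 2 lamins thus differed in opposite directions.

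HMGB1 was the most abundant member. Its transcript ENST00000326004 had 62.0 FPKM with paclitaxel and 202 FPKM with DMSO, a log2 ratio of -1.71. Its transcript ENST00000399494 had 47.5 FPKM with paclitaxel and 160.0 FPKM with DMSO, a log2 ratio of -1.75. On the deposited scale both were near the low end of the listed decreases, at ranks 524 and 519 of 535, but under scaling to the listed sum both were higher, with log2 ratios of 0.42 and 0.37. With histone and globin transcripts left out of that sum both stayed lower, at -1.29 and -1.34. The balance between them, which no scaling changes, was 1.31 with paclitaxel and 1.27 with DMSO. Both lie on the minus strand of chromosome 13, at chr13:30461496-30465938 and chr13:30460907-30465242. Their start sites differ, and 59.0% of the 31-base stretches of ENST00000326004 also occur in ENST00000399494, which makes the split of fragments into 2 levels an estimate. ENST00000399494 encodes the full protein of 215 residues and ENST00000326004 a shortened form of 158 residues. The MANE Select form of HMGB1, ENST00000341423, with an exonic length of 5456 bases, was not in the table. GENCODE 44 names 47 pseudogenes after HMGB1. The treatment of reads that fit a pseudogene is not stated, and the level of HMGB1 is uncertain for that reason.

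HMGB2 showed the largest log2 decrease among the members, with the lowest levels. Its transcript ENST00000296503 had 1.62 FPKM with paclitaxel and 18.8 FPKM with DMSO. That is 11.6-fold lower, a log2 ratio of -3.54, and rank 196 of 535. The second transcript, ENST00000446922, had 1.65 FPKM with paclitaxel and 12.4 FPKM with DMSO, 7.53-fold lower, a log2 ratio of -2.91. Both encode the same protein of 209 residues and share most of their sequence, 92.4% of the 31-base stretches of ENST00000446922, so their sum is firmer than either value: 3.27 FPKM with paclitaxel and 31.2 FPKM with DMSO, 9.55-fold lower. The gene lies on the minus strand, at chr4:173331376-173334358 for the first form. At levels under 2 FPKM with paclitaxel the ratio is sensitive to small values, and with 1 FPKM added to both libraries the log2 ratios became -2.92 and -2.34.

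HMGB2 and HMGB1 encode related proteins, identical at 83.2% of 208 aligned residues, and their transcripts shared no stretch of 31 bases. Summed over listed transcripts, HMGB2 stood at 0.0299 times HMGB1 with paclitaxel and at 0.0862 times HMGB1 with DMSO. The ratio was 2.88-fold lower with paclitaxel. HMGB1 was therefore the larger of the pair in both libraries, 33.5 times HMGB2 with paclitaxel and 11.6 times with DMSO.

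**Figure D2:**
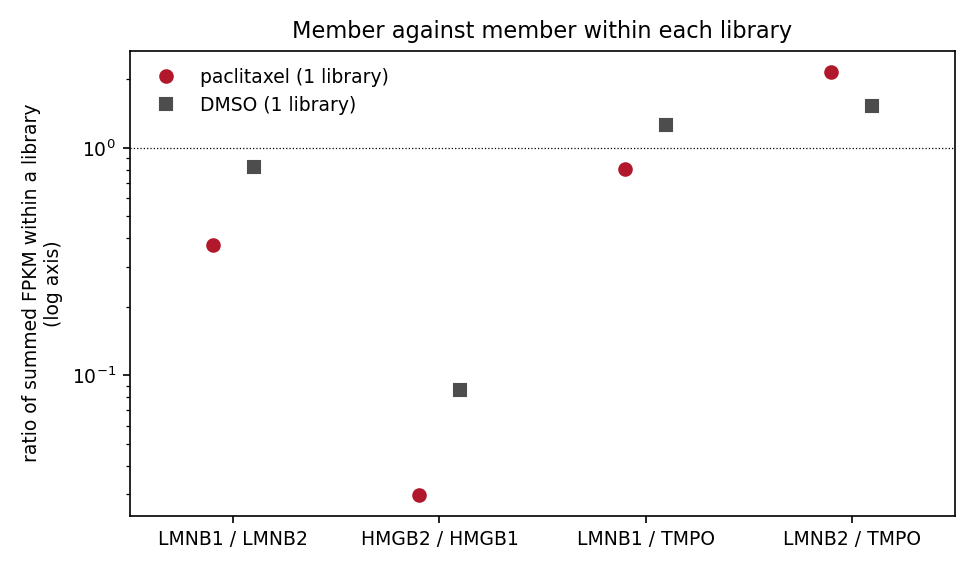
Ratio of FPKM, summed over listed transcripts, between member genes within each library (log axis). A circle marks paclitaxel, a square DMSO, and a dotted line equal levels. LMNB1 over LMNB2, HMGB2 over HMGB1 and LMNB1 over TMPO were lower with paclitaxel (0.373, 0.0299 and 0.804) than with DMSO (0.824, 0.0862 and 1.26), and LMNB2 over TMPO was higher (2.16 and 1.53).

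The order of the summed levels was HMGB1, LMNB2, TMPO, LMNB1 and HMGB2 with paclitaxel, and HMGB1, LMNB2, LMNB1, TMPO and HMGB2 with DMSO. LMNB1 and TMPO changed places, and whether such neighbours differ beyond the spread between cultures could not be assessed with 1 library each.

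**Figure D3:**
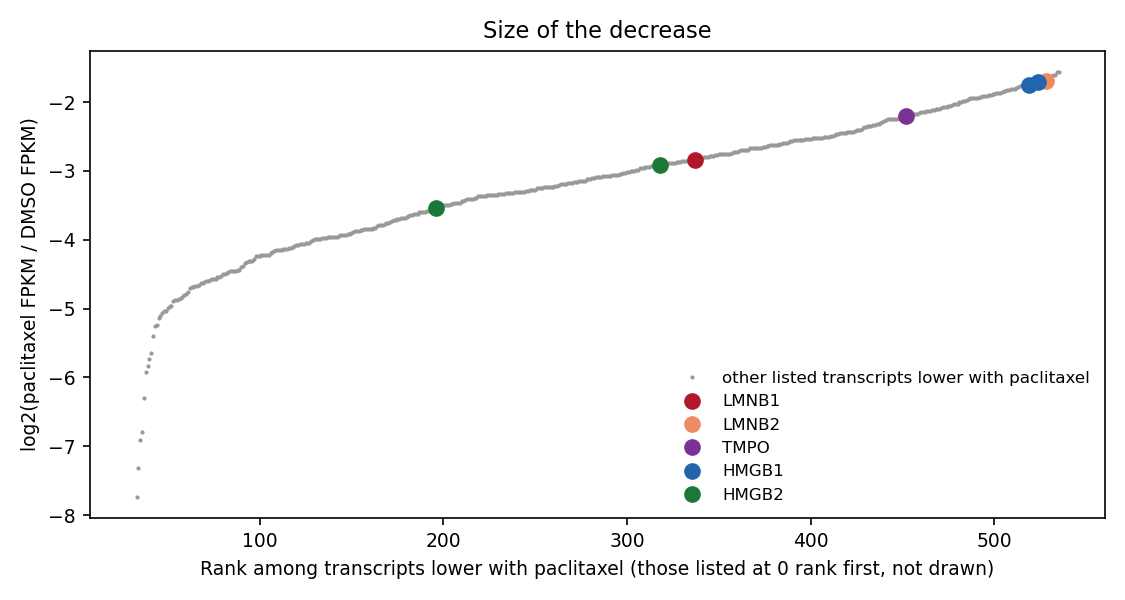
Log2 ratio of paclitaxel over DMSO (y axis) against the rank of the decrease among the 535 lower transcripts (x axis); the 32 listed at 0 with paclitaxel hold the first ranks and are not drawn. HMGB2 (-3.54 and -2.91) and LMNB1 (-2.84) lie near the middle, and TMPO (-2.20), HMGB1 (-1.71 and -1.75) and LMNB2 (-1.70) toward the small decreases. Under scaling to the listed sum HMGB1 and LMNB2 are higher instead, but not with histone and globin transcripts left out of that sum.

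The start regions of the listed transcripts are shown because these transcripts were lower together on the deposited scale, and to set the 2 HMGB1 start sites beside each other. RefSeq windows of GRCh38.p14 (250 bases before and 50 after a start) were found for 5 member genes, and 5 windows of LMNB1, LMNB2, TMPO and HMGB1 lay within 20 bases of the start of a listed transcript. The CCAAT box is a promoter element bound by the factor NF-Y and common in genes of the cell cycle. The 250 bases before each start are printed on the strand of the gene, with CCAAT, or ATTGG for a match on the other strand, in capitals.
LMNB1, chr5:126776886-126777135, plus strand: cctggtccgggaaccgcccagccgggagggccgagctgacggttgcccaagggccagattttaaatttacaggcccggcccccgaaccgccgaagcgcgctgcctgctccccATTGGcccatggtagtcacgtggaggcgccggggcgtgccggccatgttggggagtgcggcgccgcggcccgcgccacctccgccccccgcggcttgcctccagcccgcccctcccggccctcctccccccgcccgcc
LMNB2, chr19:2456960-2457209, minus strand: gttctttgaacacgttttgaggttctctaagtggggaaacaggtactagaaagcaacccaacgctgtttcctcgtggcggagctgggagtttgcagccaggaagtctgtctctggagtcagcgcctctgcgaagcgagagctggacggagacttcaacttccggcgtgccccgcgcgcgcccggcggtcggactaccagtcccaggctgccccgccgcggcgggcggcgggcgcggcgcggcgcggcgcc
TMPO, chr12:98515340-98515589, plus strand: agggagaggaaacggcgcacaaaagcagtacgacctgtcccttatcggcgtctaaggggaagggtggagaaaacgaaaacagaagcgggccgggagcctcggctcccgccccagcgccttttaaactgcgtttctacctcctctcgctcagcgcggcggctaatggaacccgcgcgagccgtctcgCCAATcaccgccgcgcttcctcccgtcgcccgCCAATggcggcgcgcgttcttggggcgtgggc
HMGB1 at ENST00000326004, chr13:30465937-30466186, minus strand: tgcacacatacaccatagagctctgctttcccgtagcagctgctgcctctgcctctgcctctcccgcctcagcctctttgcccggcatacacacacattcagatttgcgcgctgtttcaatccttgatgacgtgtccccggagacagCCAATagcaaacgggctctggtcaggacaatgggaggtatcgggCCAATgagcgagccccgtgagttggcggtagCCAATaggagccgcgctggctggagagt
HMGB1 at ENST00000399494, chr13:30465241-30465490, minus strand: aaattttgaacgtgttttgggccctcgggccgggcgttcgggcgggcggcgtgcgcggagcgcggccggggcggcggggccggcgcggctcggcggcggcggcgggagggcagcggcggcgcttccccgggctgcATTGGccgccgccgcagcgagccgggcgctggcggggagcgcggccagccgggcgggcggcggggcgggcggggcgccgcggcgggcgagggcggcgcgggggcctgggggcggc

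CCAAT occurred in 4 of these 5 windows, counting both strands, and in 34.6% of the 35116 RefSeq windows of the same length. The window of HMGB1 at ENST00000326004 held 3 matches, which 3.26% of all windows reached, and that of TMPO held 2, which 10.8% reached. LMNB1 and the other HMGB1 window held 1 each, and LMNB2 held none. The GC box GGGCGG was found in 4 of 5 windows (45.0% of all), with 9 matches in the HMGB1 window at ENST00000399494. The elements TTTGAA and TTTAAA, letters of the cell cycle homology region, were each in 2 of 5 (15.2% and 12.2% of all). Neither E2F-like word, TTCCCGCC or TTTGGCGC, was in any of the 5 (3.16% and 0.652% of all). These are matches of letters only, some of which overlap between motifs, and binding was not measured.

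The skipped-exon table was used to see which exons of the members were examined. Its read counts and inclusion levels name sample 1 and sample 2 without a condition of their own. Those columns were left out, and no change of an exon with paclitaxel is reported. The 12 events concern 12 different exons, 4 in TMPO, 3 in LMNB1, 2 each in LMNB2 and LBR and 1 in HMGB1. All 12 exons are annotated in GENCODE 44, and 9 belong to the MANE Select transcript. For 6 events GENCODE 44 also holds a transcript that joins the neighbouring exons directly. An exon that is coding over its whole length leaves the reading frame intact when skipped if that length is a multiple of 3. The length was a multiple of 3, whether or not the exon was wholly coding, for 10 of the 12 member exons (83.3%) and for 41.1% of the 31197 distinct exons of the whole table, a description with no test, since exons of 1 gene are not independent.

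In TMPO the examined exons were 3, 5, 6 and 7 of the 9 exons of ENST00000556029, all coding and of 159, 120, 96 and 111 bases. The events of exons 5, 6 and 7 share their upstream neighbour, exon 4, and GENCODE 44 holds 1 form that joins exon 4 to exon 6, 1 that joins it to exon 7 and 1 that joins it to exon 8. These forms leave out a growing stretch of the segment in the middle of the beta form. Exons 5 and 6 are printed from hg38, plus strand, because they are among the exons that set these forms apart, with the exon in capitals and 10 bases of intron on each side in lower case.
TMPO exon 5, chr12:98544230-98544349: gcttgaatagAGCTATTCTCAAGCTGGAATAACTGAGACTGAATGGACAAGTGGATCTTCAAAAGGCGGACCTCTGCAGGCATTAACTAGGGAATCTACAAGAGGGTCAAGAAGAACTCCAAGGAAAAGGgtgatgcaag
TMPO exon 6, chr12:98544442-98544537: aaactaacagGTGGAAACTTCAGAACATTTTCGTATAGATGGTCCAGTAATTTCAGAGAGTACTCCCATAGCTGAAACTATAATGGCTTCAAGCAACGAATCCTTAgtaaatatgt

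Each of these exons is preceded by the intron bases ag and followed by gt, the usual splice site letters. In LMNB1, exon 8 of 11 (105 bases, chr5:126822781-126822885) is coding in the listed transcript. The other LMNB1 events concern a 78-base exon at chr5:126815170-126815247, which 1 other GENCODE 44 form holds, and a 507-base exon at chr5:126777361-126777867, which lies within the first exon of the MANE Select form and includes 359 coding bases. LMNB2 exons 10 and 11 of 12, with 120 and 111 bases (chr19:2431783-2431902 and chr19:2431548-2431658), are coding and both leave the frame intact. The event of exon 11 has exons 9 and 12 as neighbours, so both of its forms lack exon 10. LBR, which has no expression value here, was examined at exons 9 and 10 of 14 (104 and 126 bases), at chr1:225411337-225411440 and chr1:225410291-225410416. The event of exon 9 has exons 8 and 11 as neighbours, so both of its forms lack exon 10. The HMGB1 exon, 50 bases at chr13:30461639-30461688, is held with exactly these ends by 1 GENCODE 44 form only. The listed ENST00000399494 joins the neighbouring exons directly. ENST00000326004 has no exon with these ends, and whether a longer exon of it covers the stretch was not examined.

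**Figure D4:**
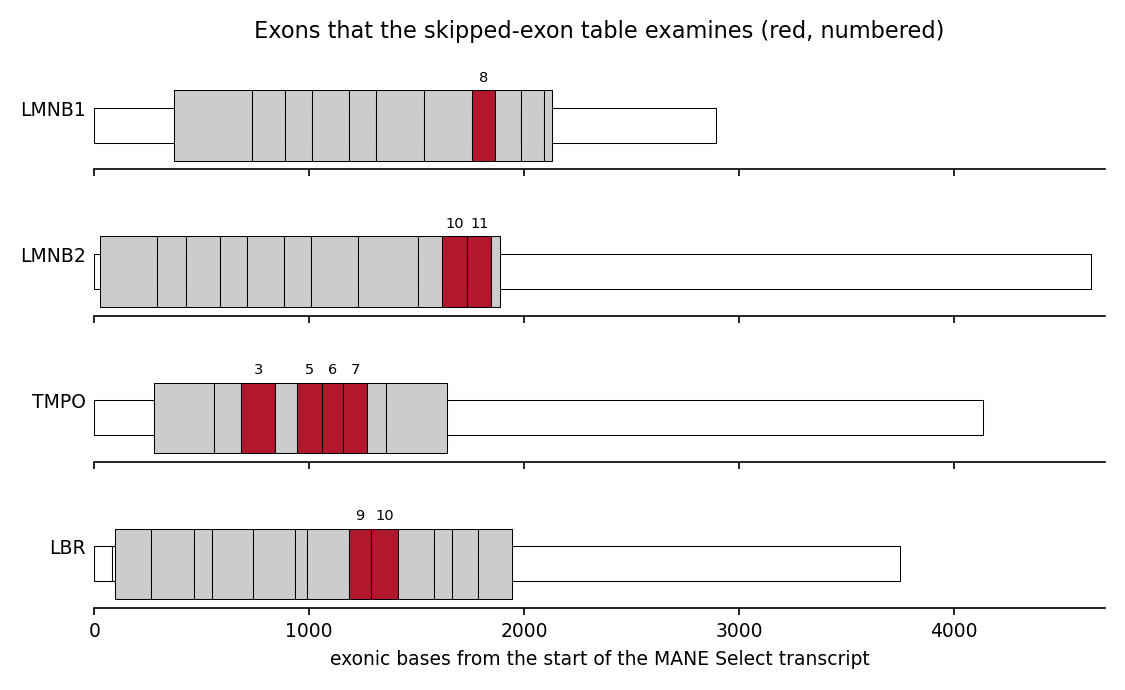
MANE Select transcripts of LMNB1, LMNB2, TMPO and LBR drawn to scale in exonic bases from the start, with untranslated parts as thin white boxes and coding parts as thick boxes. The 9 examined exons are red with their numbers: exon 8 of LMNB1, 10 and 11 of LMNB2, 3, 5, 6 and 7 of TMPO, and 9 and 10 of LBR.

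Related genes were read from lists of textbook members, and a gene counts as listed where the expression table holds it. Over all listed genes, taken by their highest transcript, 51% were lower on the deposited scale. Every gene named below as higher under scaling to the listed sum stayed lower with histone and globin transcripts left out of that sum. Of 32 genes of the nuclear lamina and envelope, 4 were listed and lower, LMNB1, LMNB2, TMPO and SUN1, of which LMNB2 turned to higher under scaling to the listed sum. SUN1 encodes an inner membrane protein that links the nucleus to the cytoskeleton. Its only listed transcript, ENST00000401592, had 0.240 FPKM with paclitaxel and 2.38 FPKM with DMSO, a log2 ratio of -3.31 at low levels. Other forms of SUN1 have no value here. LMNA, the gene of the A-type lamins, and the LMNA-binding emerin gene EMD were not listed. Of 31 nucleoporin genes, which form the nuclear pores in the same envelope, 1 was listed: NUP85 had 14.0 FPKM with paclitaxel and 42.6 FPKM with DMSO, a log2 ratio of -1.60, or 0.52 under scaling to the listed sum.

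Of 12 genes of the high mobility group and its partners, 3 were listed and lower on the deposited scale, with HMGB1 and HMGN2 higher under scaling to the listed sum. HMGN2, which encodes a nucleosome-binding protein of another high mobility group family, had 60.4 FPKM with paclitaxel and 228 FPKM with DMSO in its main transcript (log2 ratio -1.91). A second HMGN2 transcript had 0.702 FPKM with paclitaxel and 6.20 FPKM with DMSO. Of 10 genes of HMGB1 receptors and their signalling, such as TLR4 and AGER, 0 were listed.

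A list of 17 genes held kinases and phosphatases that act on the lamina when the nucleus opens and closes in mitosis. It also held partners of these and the protease gene CASP6. Of the 17, 6 were listed and all 6 were lower under both scalings, with a median log2 ratio of -3.48, where 51% of all listed genes were lower on the deposited scale. All 6 had at least 1 FPKM in both libraries, and of all listed transcripts at that level 68.5% were lower. PLK1, a mitotic kinase, had 5.45 FPKM with paclitaxel and 86.0 FPKM with DMSO, and AURKB, which corrects faulty chromosome attachments, 2.44 FPKM with paclitaxel and 36.9 FPKM with DMSO. CCNB2, a partner of CDK1, had 6.24 FPKM with paclitaxel and 84.5 FPKM with DMSO. CDK1 itself, which phosphorylates lamins at entry into mitosis, had 8.17 FPKM with paclitaxel and 74.5 FPKM with DMSO. CDCA2, which brings a phosphatase to chromatin at the end of mitosis, and CCNB1, another partner of CDK1, made up the 6.

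A list of 23 genes held genes of proliferation under E2F and DREAM control, and also genes of DREAM subunits such as LIN9. Of the 23, 13 were listed and lower, with a median log2 ratio of -3.30, where 51% of all listed genes were lower. Of the 13, 9 had at least 1 FPKM in both libraries, a level at which 68.5% of all listed transcripts were lower. DNMT1 and H2AFZ among the 13 turned to higher under scaling to the listed sum. MYBL2 had 2.29 FPKM with paclitaxel and 50.0 FPKM with DMSO, CCNA2 2.56 FPKM with paclitaxel and 40.3 FPKM with DMSO, and TOP2A, the topoisomerase of dividing cells, 14.1 FPKM with paclitaxel and 139 FPKM with DMSO. MKI67, the gene of the proliferation marker Ki-67, had 1.07 FPKM with paclitaxel and 16.1 FPKM with DMSO.

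The senescence marker list held 33 genes, of which 16 were listed, 12 higher and 4 lower, where 51% of all listed genes were lower. The lower ones were LMNB1, HMGB1, HMGB2 and MKI67, and HMGB1 among them turned to higher under scaling to the listed sum. These are RNA levels, whereas the marker for HMGB proteins is their loss from the nucleus, which was not measured. MKI67 is a marker of proliferation in general. The higher ones included CXCL8, a chemokine, with 139 FPKM in the paclitaxel library and 5.89 FPKM in the DMSO library, and CXCL1, another chemokine, with 71.6 FPKM in the paclitaxel library and 5.37 FPKM in the DMSO library. CDKN1A, GDF15, IL1A, IL1B, IL6, CCL2, CSF2, STC1 and TNFRSF10D were also among the higher genes.

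**Figure D5:**
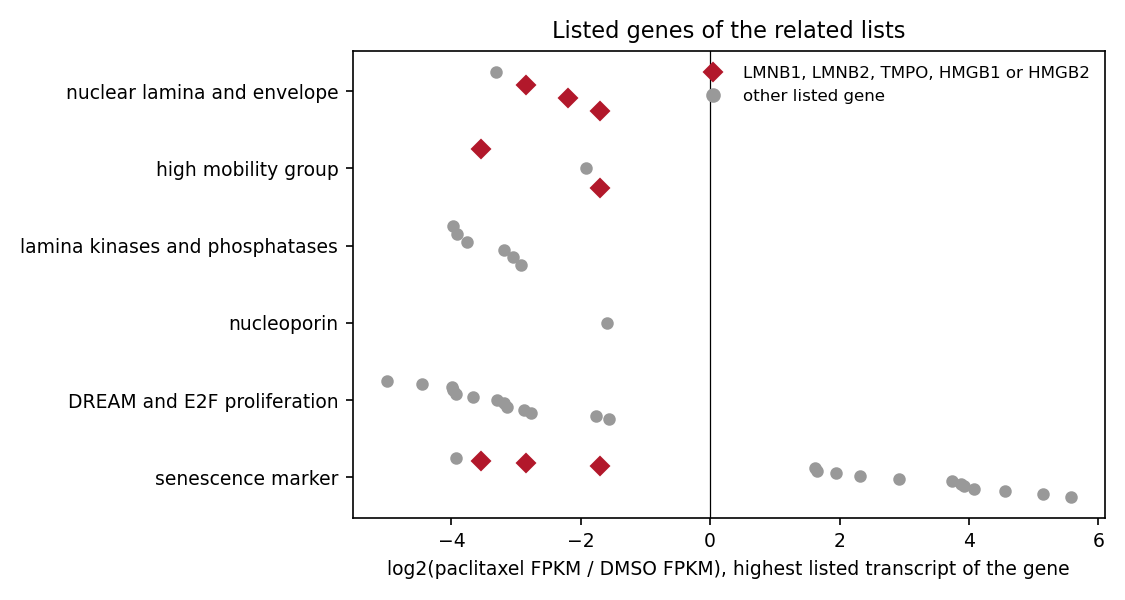
Log2 ratio of paclitaxel over DMSO (x axis, highest listed transcript of the gene) for the listed genes of 6 lists (rows), with members as red diamonds and other genes as grey circles. Listed genes lie left of 0 except for 12 of the 16 senescence markers. Adding the shift of 2.13 for the listed sum moves LMNB2, HMGB1, HMGN2, NUP85, DNMT1 and H2AFZ to the right of 0. The shift of 0.42, without histone and globin transcripts in the sum, moves none of them there.

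Markers of other cells were read in the same way. Of 7 red blood cell markers, 3 were listed, the globins HBA2, HBA1 and HBB, with a summed level of 458 FPKM in the paclitaxel library and 0.118 FPKM in the DMSO library, while ALAS2 and SLC4A1, among others, were not listed. HBA1 and HBA2 are near-identical copies, so their shares are uncertain. The part of this difference in the members' values was not tested. Of the 6 immune markers and the 8 fibroblast and endothelial markers 0 were listed, and of 11 lung epithelial markers 1 was, KRT19, with 107 FPKM with paclitaxel and 22.9 FPKM with DMSO. Since only called transcripts are listed, the label of the line could not be checked further against its markers.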

How the data were processed

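RNA of A549 cells was sequenced from 1 library per condition. Per the study's methods, the authors mapped reads to hg38 with MapSplice. CASAVA 1.8.2, TopHat and Cufflinks are named in the notes of the submitters. The deposited FPKM values per transcript were made by the authors with Cufflinks, and the table holds only transcripts with an adjusted p under 0.05 in their test. The column named A549_T was taken as the paclitaxel library from its name. The annotation release, the depth and the version of MATS are not given in the sources used here. Fold change, p-value and q-value in the expression table and the inclusion difference, p-value and FDR of the skipped-exon table are the authors' comparisons and were not used, apart from checking the adjusted p limit. In the skipped-exon table, which has the layout of MATS, 6 columns of values per library match no sample label and were not used.

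Log2 ratios of paclitaxel over DMSO were computed from the deposited FPKM with no pseudocount (Python 3.11.15, pandas 2.3.3), and the calculation was checked on simulated data. Where a gene has several listed transcripts, the most abundant one stands for it. Exons were annotated with GENCODE 44, on hg38, the build of the files. All 12 member exons are GENCODE exons, and the 9 RefSeq windows (GRCh38.p14) equal hg38. Members and lists were chosen with earlier results of these data known. Some items that the rule below would name are not reported here. The text names every member transcript, all listed genes of the lamina and high mobility group lists, up to 4 genes of each other list with the largest change in log2(FPKM + 1), the listed red blood cell markers, and the 3 transcripts nearest to the most abundant member; other genes, named to complete a count or to say that they were not listed, were chosen after their values were seen. Tried alternatives were pseudocounts of 0.1 and 1 FPKM, sums per gene, filters at 1 and 5 FPKM and, chosen after seeing the data for the members, scaling to the sum of listed transcripts with and without histones and globins.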

Additional observations from a re-analysis of the deposited data

How the results depend on the processing

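With 1 library per condition no library could be left out. No paired analysis was possible because each condition has 1 library. The median log2 ratio of the 7 member transcripts was -2.20, and became -2.07 with a pseudocount of 1 FPKM and -0.071 when each library was divided by its sum over listed transcripts, or -1.78 with histones and globins left out of that sum, 2 scalings chosen after seeing the data. Under the first scaling 3 of the 5 listed member genes were lower, and the log2 ratios of LMNB2 (0.43) and of the HMGB1 transcripts ENST00000326004 (0.42) and ENST00000399494 (0.37) reversed. All 5 were lower under the second scaling, with a filter at 1 FPKM in both libraries, at 5 FPKM in the higher library and with sums per gene. Of all listed transcripts, 319 of 466 (68.5%) were lower with at least 1 FPKM in both libraries, against 535 of 993 without a filter, and 46.8% were lower under scaling to the listed sum. The cause of these shifts beyond the construction of each setting was not tested. Depth is unknown, so the counting error of the low HMGB2 and SUN1 values cannot be given.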

Other observations

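The 3 listed transcripts of other genes that lay nearest to HMGB1 ENST00000326004, the most abundant member, by the distance of log2(FPKM + 1) over the 2 libraries, were those of RANBP1, HMGN2 and HIST1H2AC. RANBP1, which encodes a partner of the nuclear transport GTPase Ran, had 63.8 FPKM with paclitaxel and 194 FPKM with DMSO, at a distance of 0.0763. HMGN2 followed at 0.173. HIST1H2AC, a histone gene, had 63.1 FPKM with paclitaxel and 237 FPKM with DMSO, at a distance of 0.228. With 2 libraries this likeness describes a level and a difference only.

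The 2 listed HMGB2 transcripts were not lower by the same amount: ENST00000296503 stood at 0.984 times ENST00000446922 with paclitaxel and at 1.52 times with DMSO. They encode the same protein and share most of their sequence.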
